A study of Rattus norvegicus with 127 samples.

Results

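Rat pubocaudalis, a muscle of the pelvic floor, was compared between 2 groups harvested at day 3 of a model of childbirth injury: muscle given saline immediately after the injury and muscle that was injured and received no injection. The comparison used 18 of the 127 samples of the series, 9 labelled as day 3 after immediate injection of saline and 9 labelled as day 3 after simulated birth injury. The rats were Sprague Dawley in both groups, both groups carried the injury, and the labels give no age. Injury replicates 6 and 7 had the same count at all 134 probes, so they were averaged and counted as 1 sample, which left 9 saline and 8 injury samples. The labels number the samples without saying whether each came from its own animal. A p-value here reflects only how far numbered samples spread within groups. In the main fit, the SE and p-value of a gene use 1 spread estimated over all 18 groups of the series, not over these 2 alone. The question the pair of groups addresses is what an injection of saline adds to the injury.

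RNA was measured with a custom nCounter panel, in which bar-coded probes are counted without amplification. The panel covers immune response, myogenesis, muscle growth and breakdown, matrix remodelling, blood vessels and the neuromuscular junction. In injured muscle, neutrophils arrive first and monocytes and macrophages follow, drawn by chemokines of the Ccl and Cxcl families. Early macrophages make nitric oxide through Nos2 and the cytokine interleukin 1 beta, and later ones express arginase. Much of this program is driven by the transcription factor NF-kappaB, which induces its own inhibitor, Nfkbia. Because the samples are pieces of whole muscle, fewer cells of a type and less RNA per cell cannot be told apart.

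Promoters are shown for 3 genes that the results turn on: Mmp8, the collagenase of neutrophil granules and the gene called on both scales described below, Nfkbia, and Cxcl1, a neutrophil chemokine. Each is the 250 bases before the annotated start, read 5′ to 3′ on the gene's strand, from RefSeq on build GRCr8. Capitals mark matches to the NF-kappaB-like pattern GGGNNNNNCC on either strand, where matches on opposite strands may overlap.
Mmp8 (chr8:13008640-13008889, plus strand): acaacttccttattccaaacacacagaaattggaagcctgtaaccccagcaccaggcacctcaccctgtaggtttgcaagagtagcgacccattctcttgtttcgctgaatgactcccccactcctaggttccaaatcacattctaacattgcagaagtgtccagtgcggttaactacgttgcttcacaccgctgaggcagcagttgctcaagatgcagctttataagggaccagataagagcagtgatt
Nfkbia (chr6:78597073-78597322, minus strand): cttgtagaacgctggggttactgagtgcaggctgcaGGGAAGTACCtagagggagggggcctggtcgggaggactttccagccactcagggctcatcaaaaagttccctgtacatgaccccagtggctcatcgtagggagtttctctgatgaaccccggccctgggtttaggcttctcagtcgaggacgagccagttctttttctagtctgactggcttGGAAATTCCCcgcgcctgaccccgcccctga
Cxcl1 (chr14:17479322-17479571, minus strand): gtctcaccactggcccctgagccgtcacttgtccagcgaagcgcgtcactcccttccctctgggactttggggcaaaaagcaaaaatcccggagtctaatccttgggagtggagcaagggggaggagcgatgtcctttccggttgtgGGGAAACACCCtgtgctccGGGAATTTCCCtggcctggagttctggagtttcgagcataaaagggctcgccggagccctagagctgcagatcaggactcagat
The pattern occurred 2 times in the Nfkbia window and 4 times in the Cxcl1 window, there as overlapping pairs on opposite strands. These letters were not in the Mmp8 window. The pattern was in 42.3% of all 33469 promoter windows of this length and in 68% of the 100 panel genes with a window. A match is therefore common and only describes the sequence.

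The samples differed in depth and in the level of the whole panel before any gene was considered. The total count recovered per sample was between 646341 and 1707070 in the saline group, where replicates 1, 2, 3 and 6 had at least 1654240 and replicates 4, 5, 7, 8 and 9 at most 748527. In the injury group it was between 1127070 and 1713610 except in replicate 8, at 366294 counts, where 5 probes had a count of 0. Muscle identity was clear in both groups: Acta1, skeletal muscle actin, had log2 values of 14.40 to 17.65 with saline and 14.30 to 17.87 with injury alone. No marker of adipocytes, smooth muscle, red blood cells or Schwann cells from the lists used was on the panel.

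The panel as a whole read higher after saline on the scale the authors deposited. The median over the 134 probes of log2(value + 1) was 10.95 ± 0.22 (SD, n = 9) after saline and 10.33 ± 0.45 (n = 8) with injury alone, a difference of 0.63 on the log2 scale (exact permutation test over 24310 arrangements, two-sided, p = 0.00317). The saline samples lay between 10.50 and 11.20. The injury samples lay between 9.72 and 11.21, with replicate 9 above all saline samples. When each sample was instead expressed as its recovered counts relative to its own panel total, the difference in median was 0.18 and did not pass the same exact test (p = 0.391). That total includes adult muscle fibre genes, whose summed deposited value ran from 299194 to 1606980 across the saline samples. The part of fibre content in the smaller difference was not tested. The factor that turns counts into deposited values was between 0.82 and 2.16 in the saline samples and between 0.64 and 1.00 in the injury samples other than replicate 8, where it was 4.28. Gene results are therefore given on the deposited scale and also after subtracting each sample's panel median, called the centred scale.

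**Figure D1:**
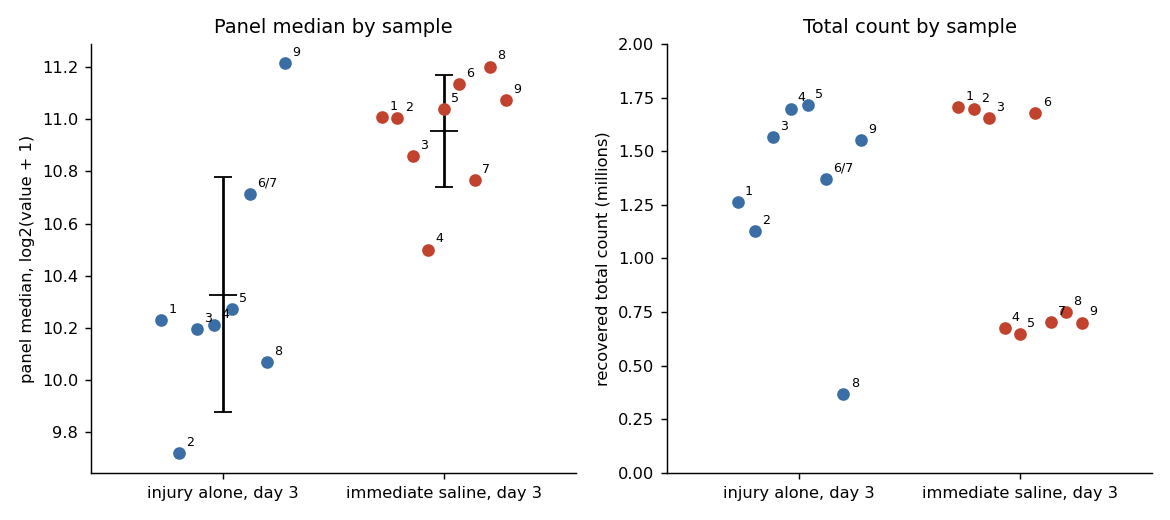
Left, the median over 134 probes of log2(value + 1) in each of the 17 samples, with group mean and SD as bars; right, the recovered total count of each sample. Numbers are replicates and 6/7 is the averaged pair; the saline panel medians lie between 10.50 and 11.20, injury replicate 9 is above all of them at 11.21, and the saline totals run from 646341 to 1707070.

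On the deposited scale 60 of 134 genes were higher after saline (44.8%) and none was lower (0%), by limma with Benjamini-Hochberg adjustment over all probes at a threshold of 0.05. On the centred scale 1 gene was higher (0.746%), Mmp8, and none was lower; 6 genes had an unadjusted p under the same value. The median log2 difference over all 134 genes was 0.55 on the deposited scale and -0.08 on the centred scale, and 46 of the 60 called genes had deposited differences between 0.3 and 0.8, close to the shift of the whole panel. For no gene did all saline samples lie above all injury samples on the deposited scale (0%) or apart from them in either direction on the centred scale (0%). Scaling every sample to the same total value, an alternative chosen after the data were seen, left 2 called genes, Mmp8 and Vegfa. That total likewise includes the fibre genes.

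Mmp8 had log2 values of 4.80 at the lowest, 7.83 at the median and 11.07 at the highest of 9 saline samples. In the injury samples it was 0.14, 5.02 and 9.01, the lowest being the count of 0 in replicate 8. The SDs of Mmp8 were 2.14 after saline and 2.81 with injury alone, while the SE below uses the spread over all 18 groups. The groups overlapped, with 8 of 9 saline samples above the injury median on the centred scale. The log2 difference was 2.97 (SE 0.66, limma adjusted p = 0.000166) on the deposited scale and 2.35 (95% interval 1.09 to 3.60, limma adjusted p = 0.0450) on the centred scale. The centred call was lost without injury replicate 8, where the difference was 1.70 (limma adjusted p = 0.922), and without any 1 of 9 other samples. Among the samples with over 1000000 counts, 4 saline and 7 injury, called the deep samples here, the centred difference was 1.29 (limma adjusted p = 0.603) and the deposited one 1.93 (limma adjusted p = 0.0366). The deep saline samples were replicates 1, 2, 3 and 6. On the centred scale replicates 2 and 3 were each the lowest saline sample for 7 of the 18 immune genes described below. Replicate 8, the highest for 14 of them, was left out. A deep-sample value of any gene therefore changes the depth and these samples together, and the part of each was not tested.

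The other 3 measured neutrophil genes, of 13 listed, did not pass the test on either scale. The list thus had 1 of 4 genes called on the deposited scale, beside 44.8% of all probes. Cxcl1 was at log2 5.18, 10.22 and 13.29 (lowest, median and highest) after saline and at 4.69, 7.27 and 11.05 with injury alone. Its deposited difference was 2.04 (SE 0.93, limma adjusted p = 0.0633), and this became 0.35 in the deep samples; it passed without saline replicate 2 or 3 or injury replicate 6 or 9, at 2.40 to 2.62 (limma adjusted p from 0.0150 to 0.0320). The chemokine Cxcl5 and the receptor Cxcr2 each differed by 1.89 on the deposited scale, and both had a count of 0 in injury replicate 8; both were named after their values were seen. The median deposited difference of the 4 neutrophil genes was 1.96, beside 0.55 for all probes, with injury replicate 8 included. In that sample the mean log2 value of the 4 genes was 1.67, against 4.80 to 10.41 in the other injury samples. The list median without it is not given here.

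Among monocyte chemokines and their receptors, 2 of the 5 measured members rose on the deposited scale, where 44.8% of all probes rose, and none on the centred scale. Ccl3, a chemokine for monocytes and macrophages, was at log2 6.92, 11.47 and 14.19 after saline and at 5.71, 7.77 and 12.33 with injury alone. Its difference was 2.24 (SE 0.67, limma adjusted p = 0.00398) deposited and 1.62 (limma adjusted p = 0.484) centred. It had 6 of 9 saline samples above the injury median on the centred scale, and in the deep samples the deposited difference was 1.15 (limma adjusted p = 0.244). Ccr2, the receptor that brings monocytes into tissue, had a narrower spread, 11.18 to 12.48 after saline against 10.05 to 12.26 with injury alone. Its difference was 0.95 (SE 0.34, limma adjusted p = 0.0175) deposited and 0.32 centred, and in the deep samples 0.77 (limma adjusted p = 0.160) deposited.

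The inflammatory cytokine list had 6 measured members, of which 1 rose on the deposited scale, beside 44.8% of all probes, and none on the centred scale. That member was Nos2, the inducible nitric oxide synthase of activated macrophages, with log2 values of 6.90, 13.29 and 16.69 after saline and 5.93, 7.58 and 14.06 with injury alone. Its deposited difference of 3.09 was the largest on the panel (SE 1.05, limma adjusted p = 0.0117), and the centred difference was 2.46 with a 95% interval of 0.46 to 4.46 (limma adjusted p = 0.553). The groups overlapped over most of their range, and in the deep samples the deposited difference was 1.70 (limma adjusted p = 0.302). The deposited call was also lost in a fit of the 2 groups only (limma adjusted p = 0.0934), while with array weights the centred difference passed, at 3.69 (limma adjusted p = 0.000301). Il1b, interleukin 1 beta, differed by 1.86 (SE 0.98, limma adjusted p = 0.111) deposited and 1.23 centred, and by 0.40 deposited in the deep samples; it passed without injury replicate 9, at 2.39 (limma adjusted p = 0.0392), or saline replicate 2, at 2.35 (limma adjusted p = 0.0475). Il23a, a subunit of interleukin 23 that was on none of the lists, was at 3.77, 6.99 and 9.35 after saline and 2.40, 3.94 and 8.14 with injury alone, and rose by 2.41 deposited (SE 0.66, limma adjusted p = 0.00175) without passing on the centred scale (1.79, limma adjusted p = 0.446). Its injury values were low, the lowest being a single count in replicate 8. In the deep samples the deposited difference of Il23a was 1.53 (limma adjusted p = 0.121).

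Of 3 measured macrophage markers 1, Arg1, rose on the deposited scale, beside 44.8% of all probes. Arg1, arginase 1, had log2 values of 8.34, 12.05 and 14.24 after saline and 7.40, 9.32 and 11.91 with injury alone. The difference was 1.80 (SE 0.62, limma adjusted p = 0.0134) deposited and 1.17 (limma adjusted p = 0.858) centred. In the deep samples it was 0.65 (limma adjusted p = 0.526) deposited and 0.01 centred, and without saline replicate 8 it was 1.42 (limma adjusted p = 0.0558) deposited. Adgre1, which encodes the macrophage surface protein F4/80, differed by 0.49 (SE 0.56, limma adjusted p = 0.453) deposited and by -0.13 centred.

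All 4 measured genes of the Toll-like receptor and NF-kappaB list rose on the deposited scale, beside 44.8% of all probes, and none on the centred scale. The list's median difference was 0.67 deposited and 0.05 centred, beside 0.55 and -0.08 for all probes. Nfkbia was at log2 12.30, 13.52 and 15.94 after saline and 11.52, 12.15 and 14.19 with injury alone, a deposited difference of 1.26 (SE 0.31, limma adjusted p = 0.000490) and a centred one of 0.63 (95% interval 0.10 to 1.16, limma adjusted p = 0.556). Ikbkb, a kinase that marks the inhibitor for destruction and another less certain probe name, differed by 0.61 (SE 0.13, limma adjusted p = 9.83e-05) deposited and -0.02 centred. In the deep samples the deposited difference of Nfkbia was 0.85 (limma adjusted p = 0.0536).

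In the type 2 and regulatory list 4 of 9 measured members rose on the deposited scale, among them Arg1, a share near the 44.8% of all probes. Stat6, the transcription factor of interleukin 4 signalling, differed by 0.72 (SE 0.22, limma adjusted p = 0.00566) deposited and 0.09 centred, and by 0.41 in the deep samples (limma adjusted p = 0.244). Il10, an anti-inflammatory cytokine, differed by 0.85 (SE 0.27, limma adjusted p = 0.00706) deposited and 0.22 centred, and its deposited call was lost in a fit of the 2 groups only (limma adjusted p = 0.117). None of the 3 measured lymphocyte regulators passed, beside 44.8% of all probes on the deposited scale. Foxp3 was at 4.14 to 8.33 after saline, and Gata3 had a count of 0 in saline replicate 8. The 2 highest Foxp3 values of the saline group, 8.33 and 7.34, were in replicates 2 and 3, and in the deep samples Foxp3 differed by 1.66 (limma adjusted p = 0.00304) deposited.

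The immune genes varied widely within each group. Over the 18 measured genes of the monocyte, neutrophil, cytokine and macrophage lists, the median SD on the centred scale was 1.81 after saline and 1.20 with injury alone, beside 0.55 and 0.48 over all 134 probes. Saline replicate 8 was the highest of the 9 saline samples for 14 of these 18 genes, and replicates 5 and 6 were among the top 3 for 13 and 11. Replicates 2 and 3 were each the lowest for 7 of the 18. In the injury group replicate 9 was the highest for 9 genes and replicate 8 the lowest for 10. Nos2 shows the span: on the centred scale its 9 saline values ran from -3.96 in replicate 3 to 5.49 in replicate 8, and its injury values stayed under -1.8 in 6 samples but reached 2.21 in the averaged replicates 6 and 7 and 2.85 in replicate 9.

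**Figure D2:**
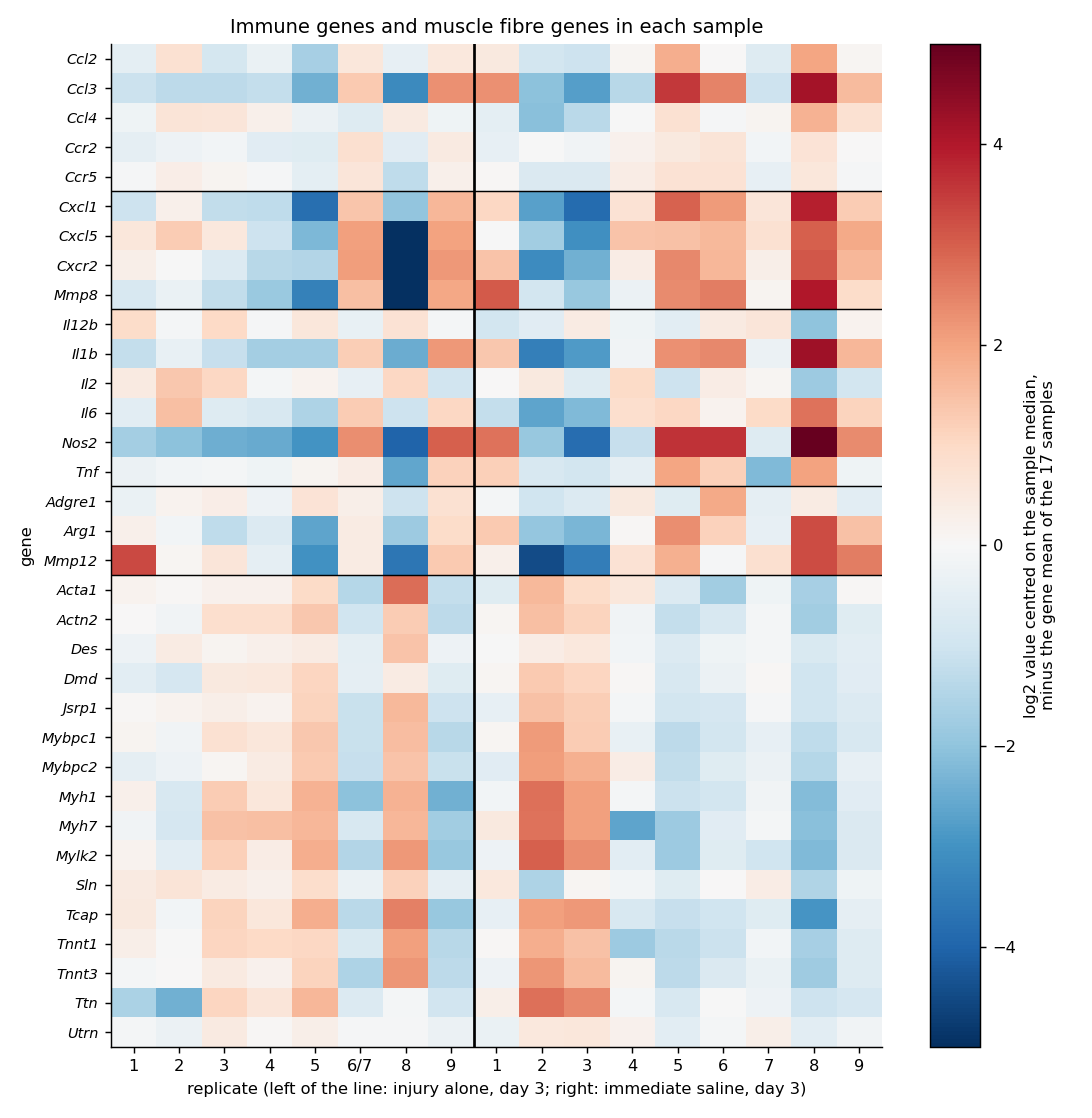
Colour gives the log2 value of each gene (rows) in each sample (columns), centred on the sample's panel median and then on the gene's mean over the 17 samples, with the scale ending at 5 in both directions. From the top, the blocks are monocyte, neutrophil, cytokine, macrophage and adult muscle fibre genes; saline replicates 2 and 3 and injury replicate 8 are low for most genes of the first 4 blocks and high for most fibre genes.

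Saline replicates 2 and 3 and injury replicate 8, low for many immune genes, were high for muscle fibre genes. The 16 measured adult muscle fibre genes, of 33 listed, had a mean centred log2 value of 4.33 and 4.08 in saline replicates 2 and 3 and 1.12 in replicate 8. In the injury group it was 4.14 in replicate 8 and 1.46 in replicate 9. Saline replicate 2 was highest for 12 of the 16 genes and replicate 8 lowest for 10. The summed deposited value of the list overlapped between groups, at 299194 to 1606980 after saline and 263433 to 1034170 with injury alone. The part of fibre content in the immune results was not tested.

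Between groups, 2 of the 16 fibre genes rose on the deposited scale, Utrn and Dmd, beside 44.8% of all probes, and none changed on the centred scale. Dmd, dystrophin, differed by 0.61 (SE 0.25, limma adjusted p = 0.0415) deposited and -0.02 centred, and its relative Utrn, utrophin, by 0.63 (SE 0.16, limma adjusted p = 0.000490) and 0.01. The Dmd call was lost without saline replicate 1, 2 or 3 or injury replicate 1, 2 or 6, at 0.40 to 0.60 (limma adjusted p from 0.0570 to 0.207). Dmd differed by 1.23 (limma adjusted p = 0.00138) in the deep samples and by 0.21 (limma adjusted p = 0.260) with array weights, which weight samples by how far they scatter. The list's median difference was 0.25 deposited and -0.37 centred, both below the median of all probes, 0.55 and -0.08. Of the 10 myogenesis genes 1 rose on the deposited scale, beside 44.8% of all probes. It was Pax7, the marker of satellite cells, at 0.79 (SE 0.28, limma adjusted p = 0.0155). The injury group's lowest Pax7 value, 2.40 in replicate 8, lay far under its next, 6.52. Without that sample the Pax7 difference was 0.23 (limma adjusted p = 0.394). Hgf, which activates satellite cells, differed by 0.54 (SE 0.24, limma adjusted p = 0.0571) deposited and -0.08 centred, and passed without saline replicate 1, 3 or 9 or injury replicate 6 or 9, at 0.57 to 0.64 (limma adjusted p from 0.0244 to 0.0483).

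The 5 smallest p-values on the deposited scale were those of Prkaa1, Akt1, Smad4, Gsk3b and Itgb1, with differences of 0.54 to 0.68. Prkaa1, a catalytic subunit of AMP kinase whose probe was matched to its name with less certainty, was at log2 10.98 to 11.33 after saline and 10.04 to 11.18 with injury alone, a difference of 0.59 (SE 0.09, limma adjusted p = 1.04e-07). Akt1, a kinase of insulin and growth factor signalling, differed by 0.54 (SE 0.09, limma adjusted p = 4.97e-07), Gsk3b, a kinase that Akt inhibits, by 0.68, and Igf1r, the receptor of insulin-like growth factor, by 0.67. After centring these were -0.03, -0.08, 0.05 and 0.04. In all, 11 of 14 measured growth genes and 3 of 5 catabolism genes rose on the deposited scale, beside 44.8% of all probes, and none on the centred scale. The median deposited difference was 0.55 for the growth list, the same as for all probes, and 0.71 for the catabolism list. Foxo3 and Foxo1, transcription factors of muscle breakdown, differed by 0.71 and 0.75 deposited and by 0.09 and 0.12 centred.

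Of 7 measured vessel genes 5 rose on the deposited scale, beside 44.8% of all probes, and none on the centred scale. Vegfa, the main growth factor for new vessels, was at log2 8.93, 9.63 and 10.54 after saline and 8.00, 8.47 and 9.24 with injury alone. Its difference was 1.11 (SE 0.22, limma adjusted p = 2.44e-05) deposited and 0.49 (95% interval 0.06 to 0.92, limma adjusted p = 0.611) centred, and all 9 saline samples lay above the injury median on the centred scale. Its deposited difference was 1.08 (limma adjusted p = 0.00106) in the deep samples. Flt1, a receptor for it, differed by 0.76 (SE 0.15, limma adjusted p = 5.23e-05) deposited and 0.13 centred.

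Each count of called genes in this paragraph stands beside 44.8% of all probes on the deposited scale. Of 3 matrix structure genes 1 rose on that scale, Dcn, a small proteoglycan that binds collagen, whose probe name was also less certain, by 0.49 (SE 0.17, limma adjusted p = 0.0157). The Dcn call was lost without saline replicate 2 or injury replicate 1 or 2, at 0.38 to 0.41 (limma adjusted p from 0.0520 to 0.0734), and in the deep samples the difference was 0.82 (limma adjusted p = 0.00150). Col3a1, a collagen of early scar, differed by 0.37 (limma adjusted p = 0.292). Thbs1, a matricellular protein released by platelets and macrophages, was at log2 11.55, 13.44 and 14.98 after saline and 10.43, 12.52 and 13.58 with injury alone, a difference of 1.17 (SE 0.46, limma adjusted p = 0.0285) that became 0.14 in the deep samples. That call was lost without saline replicate 5, 8 or 9 or injury replicate 5 or 8, where the difference was 0.91 to 1.05 (limma adjusted p from 0.0595 to 0.115). Tnc, tenascin C, differed by 0.25 (SE 0.49, limma adjusted p = 0.673). Mmp8 and the gelatinase Mmp9 were the 2 called of 9 proteinases and hyaluronan synthases; Mmp9 differed by 0.97 (SE 0.33, limma adjusted p = 0.0120) deposited and 0.35 centred, and by 0.81 in the deep samples (limma adjusted p = 0.119). Of 4 proteinase inhibitors Timp2 rose, by 0.60 (SE 0.15, limma adjusted p = 0.000490), and Timp3 differed by 0.40 (limma adjusted p = 0.159), by 0.56 without saline replicate 8 (limma adjusted p = 0.0476) and by 1.17 in the deep samples (limma adjusted p = 0.000903). In the fibroblast and TGF-beta list, whose median difference was 0.58, 5 of 8 rose on the deposited scale, beside 44.8% of all probes, with Smad4, the shared partner of TGF-beta signalling, at 0.58 and Pdgfa, a growth factor for fibroblasts, at 0.57. Of 6 neuromuscular junction genes 3 rose, a share near the 44.8% of all probes. They included Utrn, counted above as a fibre gene, and App, the amyloid precursor, at 0.60, whose probe name was also less certain. Itgb1, an integrin subunit, differed by 0.56. After centring, Dcn, Col3a1, Tnc, Timp2, Timp3, Smad4, Pdgfa, App and Itgb1 had differences from -0.38 to -0.02.

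**Figure D3:**
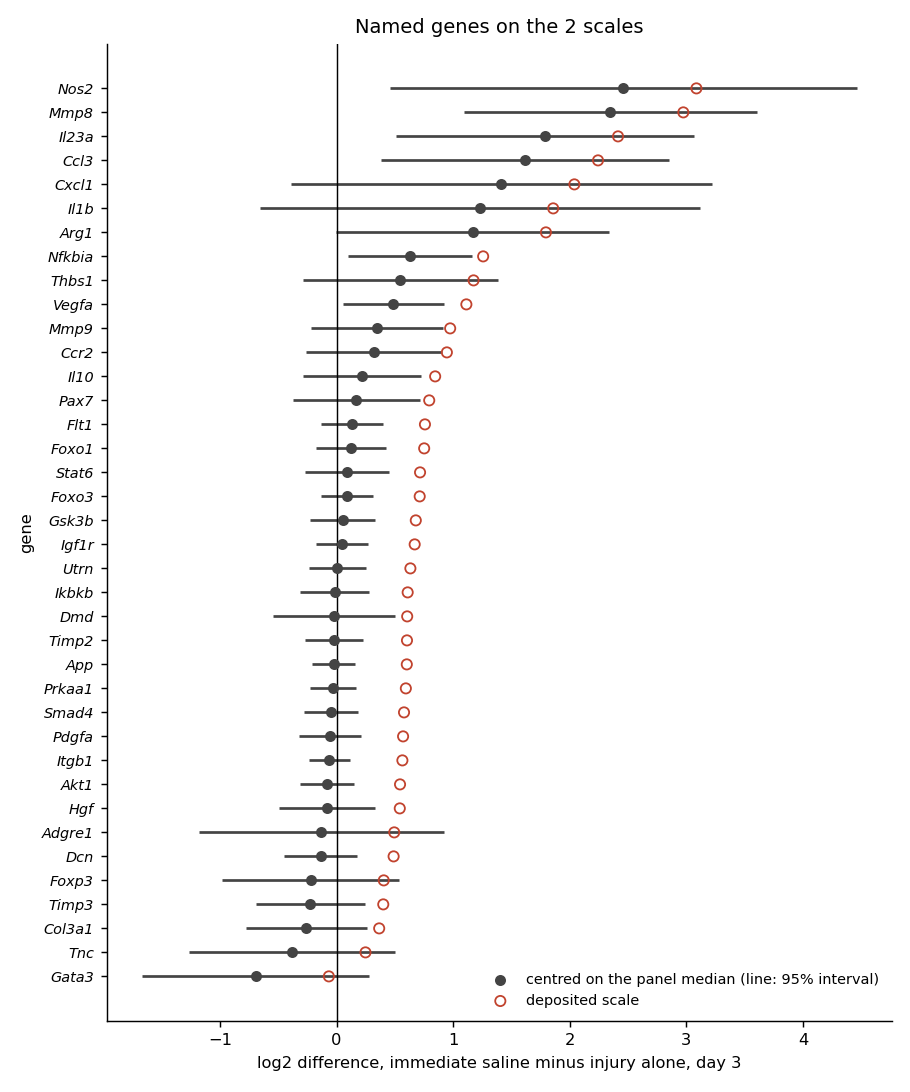
Log2 difference of the 38 named genes between immediate saline and injury alone at day 3, after centring on the panel median (filled points with 95% intervals) and on the deposited scale (open circles). The open circles lie 0.63 to the right of the filled ones, and the centred intervals of Nos2, Mmp8, Il23a, Ccl3, Nfkbia and Vegfa lie above 0 before adjustment.

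Levels in 3 further groups, given side by side with no test, place these values. The medians of Mmp8 on the centred log2 scale were -5.24 in uninjured muscle (3 samples), -2.01 at day 1 of injury alone (3 samples), -5.16 at day 3 of injury alone, -3.24 at day 3 with saline and -4.95 at day 3 after immediate injection of SKM, as the labels name the other injected material (9 samples). For Nos2 they were -4.81, 0.77, -2.39, 2.22 and -0.50 in the same order. For Il1b they were -6.07, 0.50, -2.01, 0.51 and -1.73, and for Arg1 -3.51, 0.70, -0.65, 0.91 and -0.72. In each of these 4 genes the saline median at day 3 was above that of injury alone and above that of SKM at day 3. Vegfa had its highest median in uninjured muscle, 0.07, followed by -1.27 at day 1, -1.39 with saline, -1.69 with SKM and -1.82 with injury alone at day 3. Uninjured muscle did not overlap its neighbour in the order for Nos2, Il1b, Arg1 and Vegfa, and all other neighbours in these 5 orders overlapped.

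**Figure D4:**
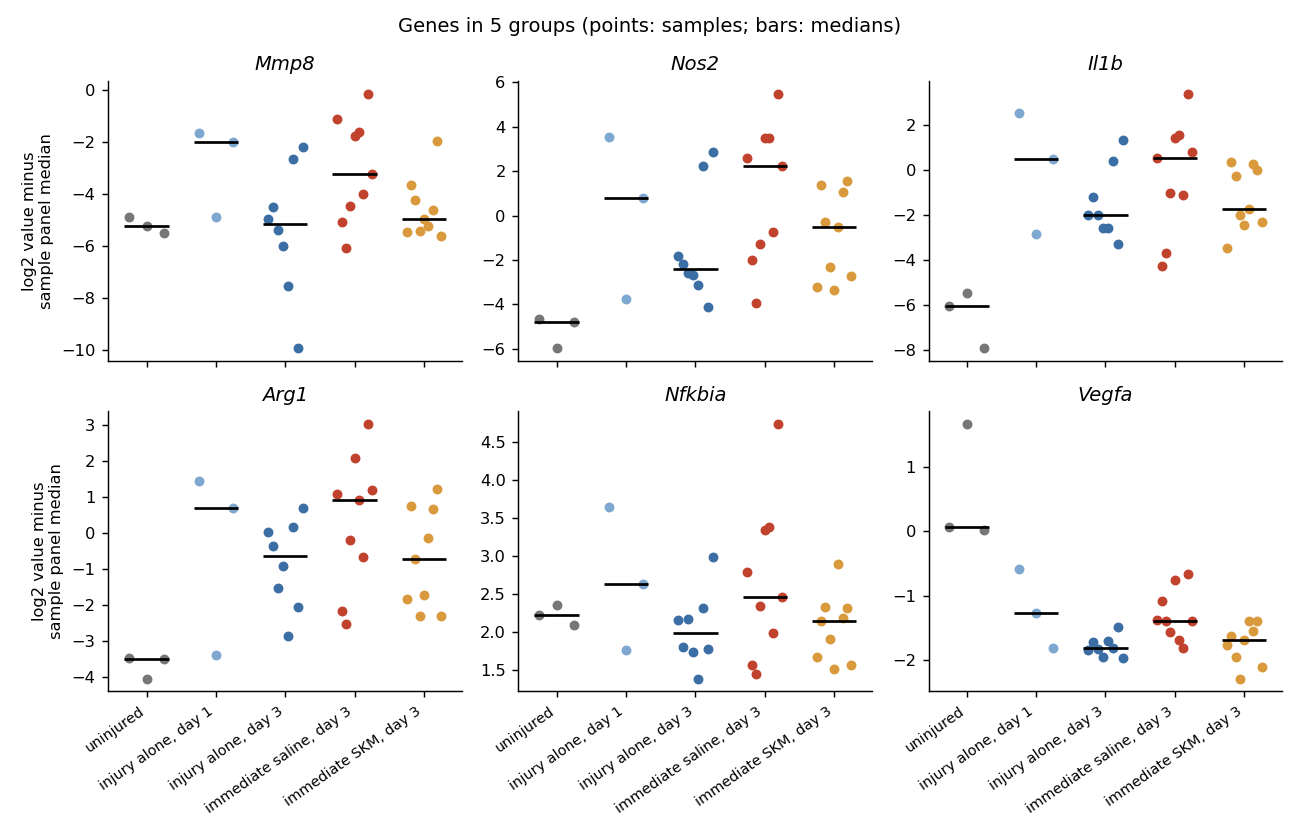
Log2 value minus the sample's panel median (vertical axis) of 6 genes in 5 groups, with a point per sample and a bar at the group median. In each of the 6 genes the saline median at day 3 is above those of injury alone and of SKM at day 3, and the saline points overlap both.

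The effect of immediate saline was also set against its own effect 4 days later, in other samples. At day 7 immediate saline against injury alone called 4 genes on the deposited scale (2.99%), Prkaa1, Gsk3b, Itgb1 and Foxo3. The difference between the day 3 and the day 7 effect passed for 1 gene on each scale (0.746% deposited, 0.746% centred), Mmp8. Mmp8 differed between saline and injury by 2.97 at day 3 and by -1.04 (SE 0.72) at day 7, a deposited difference between effects of 4.01 (SE 0.98, limma adjusted p = 0.0109) and a centred one of 3.67 (limma adjusted p = 0.0205). The day 3 injury group in this difference includes replicate 8, where Mmp8 was at log2 0.14. A fit of the difference without that sample is not given here. Ccl3 was next, at 3.00 (SE 0.99, limma adjusted p = 0.191), then Il10, at 1.16 (limma adjusted p = 0.191), Smad4, at 0.38, and Il23a, at 2.48 (limma adjusted p = 0.261). The inflammatory cytokine list had a median effect of 0.92 at day 3 and -0.78 at day 7 on the deposited scale, with 6 and 1 of its 6 genes above 0, and the neutrophil list 1.96 and -0.39. The neutrophil value at day 3 includes injury replicate 8, where Mmp8, Cxcl5 and Cxcr2 had a count of 0. Over all 134 probes the medians were 0.55 and 0.24, with 127 and 121 above 0.

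Delayed saline, harvested 3 days after a later injection, was set against injury alone at day 31. The labels do not state the day of the later injection, so the match in time is assumed. That comparison called 3 genes on the deposited scale (2.24%). The difference between the immediate and the delayed effect passed on the deposited scale for 55 genes in the positive direction (41.0%) and 1 in the negative (0.746%), and after centring for 1 gene (0.746%). The negative gene was Adam12 on both scales, a disintegrin metalloproteinase active in regenerating muscle, named after its value was seen. Adam12 differed by 0.39 (SE 0.37) with immediate saline and by 1.93 (SE 0.40) with delayed saline, a centred difference between effects of -2.26 (SE 0.50, limma adjusted p = 0.00209). The smallest p-values were those of Prkaa1, Igf1r, Smad4, App and Gsk3b, with deposited differences between effects of 0.81 to 1.14. Their centred differences were 0.09 to 0.42 and did not pass.

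The authors' deposited table lists 17 genes for saline at day 3, under a block headed with both SKM and saline, so the pairing of the groups is read from the closest heading. All 17 values were positive log2 fold changes, from 0.35 for Flt1 to 2.62 for Nos2. Of these values in the authors' deposited table, those of Arg1 at 2.02 and Vegfa at 0.86 had a q-value of 0.01, and the others had q-values up to 0.22. The authors' values could not be matched to a set of samples: over 502 sets of injury samples, the ratio of group means differed from the authors' deposited value by a median of at least 0.109 on the log2 scale, so the sides may not hold the same samples. Of the same 17 genes 14 were called here on the deposited scale and 1 on the centred scale. The authors' deposited value lay between the centred and the deposited difference for 13 genes and above both for 3, Arg1, Cxcl1 and Il1b. It was below both for Mmp8, at 2.21 in the authors' deposited table. The authors' fold changes used for naming probes matched log2 ratios of group means, whereas the differences here are between means of log2 values. As a log2 ratio of group means over all labelled samples, Mmp8 was 2.06 and Arg1 2.03. The authors' deposited value was above that ratio for Mmp8 and just below it for Arg1, so these placements depend on the measure.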

How the data were processed

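The deposited value table holds a normalized signal per probe and sample on a linear scale; none of the sources names its software, control probes or scaling genes. RNA came from muscle kept in RNAlater, with 50 to 100 ng hybridised, per the labels' protocols. Each signal deposited by the authors was a whole count times a factor of the sample: dividing by that factor gave whole numbers, to within 0.05, for 16829 values, and the other 189 were 0.1, taken as a count of 0. Probes carry numbers only, so genes were named by matching values to the fold changes in the authors' deposited tables. In all 134 probes were named, 129 as the best match in both directions, which leaves App, Ccn2, Dcn, Ikbkb and Prkaa1 less certain by their values. The names ran in alphabetical order over all 133 pairs of neighbouring probes, an order that the matching did not use. All 134 names matched RefSeq.

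Values were tested as log2(value + 1), with a pseudocount of 1, by limma 3.58.1 in R 4.3.3: 124 samples in 18 groups in 1 fit, after averaging samples with identical counts, and Benjamini-Hochberg adjustment over 134 probes at a threshold of 0.05. The code was tested on simulated data. Panel medians were compared with an exact permutation test. Counts and floors cover counting error only. Named genes are those called on both scales, the 5 with the smallest adjusted p of those called on 1 scale, 2 of each list by adjusted p on the deposited scale and 5 of each difference of effects. The genes, lists and comparisons were chosen with earlier results of these data known. Alternatives were other scales, pseudocounts, weights, sample sets and blocks. Python 3.11.15 made the summaries.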

Additional observations from a re-analysis of the deposited data

Results flagged for a closer look

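Of 80 groups of samples checked for a single distant sample, 4 held one, the number chance gives at about 1 in 20. Injury replicate 8 had a total count of 366294, far below the next injury sample, and the lowest Pax7 log2 value, 2.40. In the saline group replicate 5 had the lowest Dcn, 14.69 on the log2 scale, and replicate 8 the lowest Gata3, 0.14, a count of 0.

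The effect of immediate saline at day 3 differed from that at day 7 for Mmp8, by 4.01 on the log2 scale (SE 0.98, limma adjusted p = 0.0109). That difference includes day 3 injury replicate 8, where Mmp8 was at log2 0.14, and a fit without it is not given here. The day 3 effect differed from the effect of delayed saline, on the deposited scale, for 26 of the named genes, beside 41.0% of all 134 probes in the positive direction. Of the named genes, 5 had been picked for the smallest p-values of this same difference. The others were picked by the day 3 effect or its difference from day 7, which hold the same day 3 samples. The choice of genes therefore favours a share above 41.0%, and the count is not a result about them. The log2 differences between effects over 2 were 4.12 for Nos2, 3.10 for Mmp8, 2.86 for Ccl3, 2.67 for Il23a and 2.01 for Nfkbia. Those from 1 to 2 were 1.65 for Thbs1, 1.18 for Il10, 1.14 for Igf1r, 1.09 for App, 1.07 for Stat6, 1.03 for Flt1 and 1.03 for Utrn. Those under 1 were 0.97 for Vegfa, 0.97 for Timp3, 0.92 for Timp2, 0.90 for Dcn, 0.89 for Foxo3, 0.87 for Prkaa1, 0.86 for Gsk3b, 0.86 for Hgf, 0.81 for Foxo1, 0.81 for Smad4, 0.72 for Ikbkb, 0.65 for Itgb1, 0.62 for Pdgfa and 0.59 for Akt1. After centring none of these 26 passed, and Adam12 alone did, at -2.26.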

How the results depend on the processing

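The count of 60 called genes on the deposited scale became 1 after centring and 2 after scaling to the same total value, and it was 49 to 79 under the other alternatives run without a block; without 1 replicate it ranged from 51 to 71. With array weights 2 of the 79 called genes were lower. The single centred call became 0 with a pseudocount of 10, in a fit of the 2 groups only, with injury replicates 6 and 7 as 2 samples and with injury replicates 1 to 6 only. It was 9 with array weights, 5 higher (Ccl3, Il23a, Mmp8, Nfkbia and Nos2) and 4 lower (Actn2, Grb10, Tcap and Tnnt1, named after their values were seen), and 0 or 1 without 1 replicate. In the deep samples 1 gene was called on the centred scale, Myog, lower by -1.32. The panel median difference was 0.18 on recovered counts relative to the panel total and 0.54 to 0.75 without 1 replicate. The 56 differences between the immediate and delayed effects became 1 after centring. The filter on low values removed no probe. With a replicate block in a fit of the 2 groups, 0 genes were called on either scale, with 53 and 4 at an unadjusted p under 0.05. Of 8 same-numbered pairs, 4 had correlated deviations above 0.1 (range -0.76 to 0.66) and 1 correlated best with its own number. The labels do not say whether the numbers pair the samples, and so few pairs cannot settle it. The planned count models on the recovered counts (edgeR with TMM or with the authors' factors, and DESeq2) were not run; limma with voom weights on those counts took their place. Over 1064 results for the 38 named genes under alternatives, 895 kept direction and call, 112 lost the call, 26 gained it and 31 changed sign; the cause was not tested. In a fit of the 2 groups only, the deposited calls of Arg1, Ccl3, Dcn, Dmd, Il10, Nfkbia, Nos2, Pax7 and Thbs1 were lost (limma adjusted p from 0.0503 to 0.241).

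Named genes that changed sign after centring were Adgre1 at -0.13, Akt1 -0.082, App -0.024, Col3a1 -0.26, Dcn -0.14, Dmd -0.021, Foxp3 -0.22, Hgf -0.084, Ikbkb -0.017, Itgb1 -0.062, Pdgfa -0.056, Prkaa1 -0.032, Smad4 -0.048, Timp2 -0.023, Timp3 -0.23 and Tnc -0.38. With equal totals Col3a1 was -0.081, Foxp3 -0.032, Timp3 -0.046 and Tnc -0.20, and with array weights Foxp3 was -0.14. Gata3, at -0.07 in the report, was 0.12 with a pseudocount of 10, 0.13 with injury replicates 1 to 6, 0.16 with array weights, 0.16 with voom and 1.02 in the deep samples; without 1 replicate it ranged from -0.30 to 0.46, above 0 without saline replicate 5 or 8 or injury replicate 5, 6 or 8. The voom, equal-total and depth alternatives and the repeats on the centred scale were chosen after seeing the data.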

Other observations

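Injury replicate 8 had a count of 0 for Cxcl5, Cxcr2, Mmp8, Smad2 and Tbx21, named after their values were seen. Smad2, which transmits TGF-beta signals, was at log2 3.44 to 5.58 in the other 7 injury samples and at 3.65 to 5.28 in the saline samples. Its factor of 4.28 was the largest of the 17 samples, so a single count there is worth more on the deposited scale than in any other of them.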
